A study of Homo sapiens with 6 samples.

Results

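The genes described here encode the nucleoporins, the proteins that build the nuclear pore complex. They were taken by symbol from the table of array signals: every gene whose single annotated symbol starts with NUP and a digit, together with TPR, RANBP2, NDC1, POM121, AAAS, SEH1L, SEC13, RAE1, GLE1 and AHCTF1. This gave 34 genes of the 18132 genes with a probe set of their own, and each gene was represented by its probe set with the highest mean over the 6 arrays. The study compared 3 arrays of A549 cells in which the long noncoding RNA LINC00525 was lowered (called knockdown here) with 3 arrays of A549 cells given a scrambled negative control. A549 is an established human lung adenocarcinoma line, and both groups were grown in the same medium. The titles call the constructs "sh" and the treatment text calls them small interfering RNA, and they name no construct sequence. In the genotype field, knockdown replicate 2 carries LINC00526 and knockdown replicate 3 LINC00527, whereas their titles carry LINC00525, which was followed. The labels do not say whether replicates were separate cultures, so p-values cover only the spread among these arrays, and part or all of it may be technical.

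The nuclear pore complex is the channel in the nuclear envelope through which proteins and RNA pass. Stacked rings of scaffold nucleoporins hold a central channel filled with proteins rich in phenylalanine-glycine (FG) repeats. Transport receptors carrying cargo bind these repeats, the small GTPase Ran gives import and export their direction, and messenger RNA leaves through a path that ends at the cytoplasmic face. Many nucleoporins also act in mitosis, when the pore is taken apart and rebuilt.

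LINC00525 itself read 3.67, 3.45 and 3.54 log2 units on the knockdown arrays and 3.86, 3.74 and 3.97 on the control arrays. All knockdown values lay below all control values (log2 change -0.30 ± 0.075 SE, limma adjusted p = 0.0372), close to background, since 1 of the 17 Tag probe sets, controls with no human target, lay above its control mean. Of the epithelial and A549 markers examined, KRT8, KRT18, KRT19, EPCAM, CDH1, AKR1B10, AKR1C1 and ALDH1A1, the mean signals ran from 5.30 to 12.8, and 12 markers of leukocytes, endothelium and fibroblasts had a median of 3.39 and a highest value of 6.22, that of CD14. KRT19 was called higher (0.29) and KRT8 lower (-0.15), and 0 of those 12 markers were called, although PECAM1 and LUM were higher at an unadjusted limma p under 0.05. All values are log2 signals after RMA, so a change is read against the bulk of genes on that array, and fewer cells and less RNA per cell cannot be told apart. The split of all called genes between 1239 lower and 1046 higher became 909 lower and 1290 higher after cyclic loess normalization.

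In knockdown cells 10 nucleoporin genes fell and 0 rose. The genes that fell were NUP98, NUP85, NUP50, GLE1, RAE1, NDC1, NUP58, NUP88, NUP35 and SEC13, and they fell by small amounts, with linear signals 8.83% to 22.4% below control (limma adjusted p under 0.05 over all genes). They made up 29.4% of the 34 genes, whereas 6.83% of all genes tested were called lower. Of all genes, 5.77% were called higher. At an unadjusted limma p under 0.05, 0 nucleoporin genes were higher and 19 lower (55.9%), against 11.1% of all genes higher and 15.5% lower. The 34 genes had a median log2 change of -0.12, and all genes had one of -0.01. Of the 34, 31 had a negative change, 2 a positive one and 1, NUP54, a change of 0. Among all 18132 genes, 9991 had a negative change and 7887 a positive one. Among the 5600 genes whose mean signal lay in the range of the 32 nucleoporin genes brighter than every Tag probe set (6.80 for NUP214 to 10.1 for SEC13), 13.7% were called lower and 9.66% higher, with a median of -0.03. In this range 3338 of the 5600 genes had a negative change and 2202 a positive one.

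The direction was seen on every knockdown array. On knockdown arrays 1, 2 and 3, 32, 31 and 30 of the 34 genes lay below their control mean, with median deviations of -0.13, -0.12 and -0.095. The median deviations of all genes on these arrays were 0, -0.023 and -0.02. How many of all genes lay below their control mean on each array was not counted. The control arrays had 18, 21 and 11 of the nucleoporin genes below their control mean. They make up that mean and so lie around it by construction. For 21 of the 34 genes all knockdown arrays lay below all control arrays, which was so for 17.9% of all genes. For 0 of them all knockdown arrays lay above, against 12.9% of all genes. In the signal range given above, all knockdown arrays lay below all control arrays for 1819 of 5600 genes and above for 1106. The number of calls depended on single arrays: 2, 3 and 6 nucleoporin genes were called lower when knockdown replicate 1, 2 or 3 was left out, and 3, 2 and 4 when control replicate 1, 2 or 3 was left out. The shares of all genes called lower in those fits were 4.09%, 3.04% and 4.37%, and 3.60%, 2.60% and 3.08%. NUP98 was called in all 6 of these fits and NUP50 in 3. NUP85, GLE1, RAE1, NDC1 and NUP88 were called in 2 each, NUP58 in 1, and NUP35 and SEC13 in 0, although no change of these 10 genes turned its sign.

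**Figure D1:**
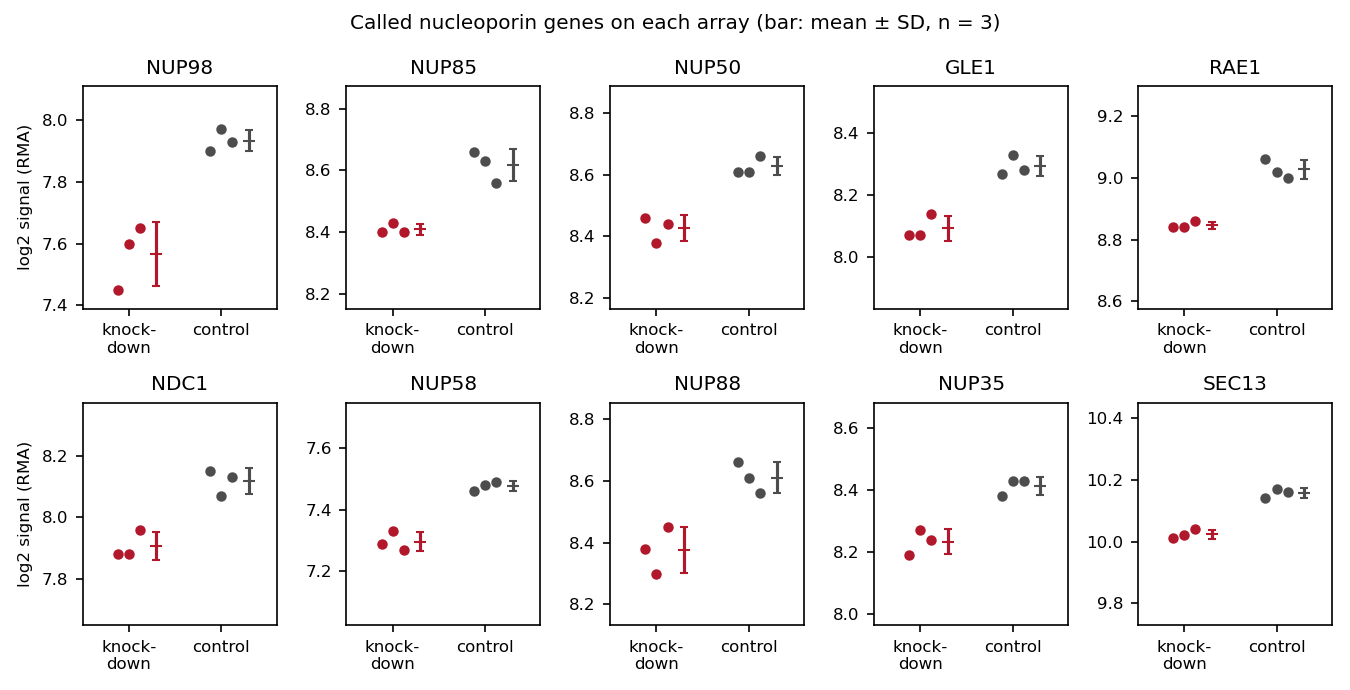
Log2 signal (vertical axis, RMA) of the 10 nucleoporin genes called lower, on each knockdown array (left, red) and control array (right, grey); bars are the mean ± SD of 3 arrays, and each panel spans the same number of log2 units. In every panel the knockdown arrays lie below the control arrays, and NUP98 has the widest gap, with means of 7.57 in knockdown and 7.93 in control cells.

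Upstream sequences of 4 members are shown because 3 of them fell (NUP98 by the most, NUP88 by the next most, NUP35 at every one of its probe sets) and NUP54 had a change of 0. They are the 250 bases before an annotated start of transcription, in the direction of transcription, from RefSeq (GRCh38.p14). For NUP35 this start lies inside the annotated gene, which begins at chr2:183117514. Capitals mark the motifs searched for.
NUP98: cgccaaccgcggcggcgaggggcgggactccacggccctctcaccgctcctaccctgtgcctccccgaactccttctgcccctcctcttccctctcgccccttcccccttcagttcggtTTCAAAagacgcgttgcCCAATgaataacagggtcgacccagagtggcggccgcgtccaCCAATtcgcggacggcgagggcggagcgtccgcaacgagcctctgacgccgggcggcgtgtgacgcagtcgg
NUP88: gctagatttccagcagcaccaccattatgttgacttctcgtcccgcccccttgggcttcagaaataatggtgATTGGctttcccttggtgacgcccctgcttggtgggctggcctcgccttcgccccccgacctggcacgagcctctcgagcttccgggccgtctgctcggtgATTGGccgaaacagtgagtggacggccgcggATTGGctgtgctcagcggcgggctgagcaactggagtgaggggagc
NUP35: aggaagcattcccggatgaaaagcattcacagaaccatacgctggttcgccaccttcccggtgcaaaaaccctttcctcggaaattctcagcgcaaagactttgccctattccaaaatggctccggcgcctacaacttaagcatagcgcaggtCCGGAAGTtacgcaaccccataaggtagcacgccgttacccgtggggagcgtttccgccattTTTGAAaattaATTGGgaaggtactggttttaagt
NUP54: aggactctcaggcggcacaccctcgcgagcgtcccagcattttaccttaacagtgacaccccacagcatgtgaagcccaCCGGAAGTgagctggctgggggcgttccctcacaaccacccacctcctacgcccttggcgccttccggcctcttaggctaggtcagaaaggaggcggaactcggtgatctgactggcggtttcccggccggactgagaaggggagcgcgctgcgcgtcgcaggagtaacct
The windows lie at chr11:3797547-3797796 (minus strand) for NUP98, chr17:5419663-5419912 (minus strand) for NUP88, chr2:183124193-183124442 (plus strand) for NUP35 and chr4:76148398-76148647 (minus strand) for NUP54. The motifs were searched on both strands, and none is contained in another: CCAAT, the box bound by the factor NF-Y; TTTGAA and TTCGAA, forms of the cell cycle homology region; TTTCGCGC, TTTGGCGC, TTTCCCGC and TTTGGCGG, forms of the E2F site; CCGGAAGT, bound by ETS factors; and GAAA followed after any 2 bases by GAAA, the core of the interferon-stimulated response element. Counted from the start site to the leftmost base of the match, NUP98 held CCAAT at -114 and -72 and TTCAAA, the reverse complement of TTTGAA, at -131. Counted from a further annotated NUP98 start, these matches lay at -106, -64 and -123. NUP88 held ATTGG, the reverse complement of CCAAT, at -178, -77 and -46. In the NUP35 window CCGGAAGT lay at -97, TTTGAA at -35 and ATTGG at -24, and NUP54 held CCGGAAGT at -171.

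Over windows of 250 bases before and 50 after the start, 30 of the 34 genes matched the RefSeq table, with 39 windows; AHCTF1, GLE1, NUP210P1 and NUP43 did not. CCAAT was in 43.6% of the 39 windows and in 34.6% of all 35116 windows of that length in the table. The TTTGAA and TTCGAA forms were in 25.6% of them and 16.4% of all windows, and CCGGAAGT in 17.9% and 4.14%. An E2F form was in 5.13% of the nucleoporin windows and 3.35% of all, and the interferon element in 2.56% and 3.57%. Some of the 39 windows overlap, such as those of SEC13 and of NUP98, so the same match can be counted more than once. The median GC content was 63.3% in the nucleoporin windows and 58.7% in all windows, and windows of matched GC content were not compared. Of the 9 matched genes that fell, 4 held CCAAT (NUP35, NUP85, NUP88 and NUP98), 4 a TTTGAA or TTCGAA form (NDC1, NUP35, NUP50 and NUP98), 3 CCGGAAGT (NUP35, NUP58 and SEC13) and 0 an E2F form or the interferon element. Of the other 21 matched genes, 9 held CCAAT, 4 a cell cycle form, 3 the ETS motif, 2 an E2F form and 1 the interferon element. A match is a string of letters and not a measured site, and nothing about a factor was measured. The 34 genes lie on 18 chromosomes.

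The outer ring is built from the Y complex, whose subunits also attach to kinetochores in mitosis. Of its 9 genes 2 fell, 0 rose and 7 did not pass the test, with a median log2 change of -0.11. NUP85, a scaffold subunit of the Y, had 8.40, 8.43 and 8.40 log2 units on knockdown arrays and 8.66, 8.63 and 8.56 on control arrays. The groups did not overlap, and the change was -0.21 ± 0.041 (SE, limma adjusted p = 0.0172). SEC13, which also belongs to the COPII vesicle coat, had the highest array signal of its class, with 10.01, 10.02 and 10.04 in knockdown against 10.14, 10.17 and 10.16 in control cells. Array signals do not rank RNA amounts between genes. Its values were tight within each group and the change was small, -0.13 ± 0.035 (SE, limma adjusted p = 0.0464). The call did not hold in the fit over all probe sets (adjusted p = 0.0722), where its other probe sets were at -0.02 to -0.16.

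The remaining Y complex genes were NUP107 (-0.14), NUP133 (-0.12), NUP43 (-0.11), NUP37 (-0.10), SEH1L (-0.08), AHCTF1 (-0.06) and NUP160 (0.01), with limma adjusted p from 0.0799 to 0.912. AHCTF1, known as ELYS, brings the Y complex to chromatin when the pore is rebuilt after mitosis. For NUP107, NUP133, NUP43, NUP37 and SEH1L all knockdown arrays were nonetheless below all control arrays. NUP160 and AHCTF1 overlapped between groups.

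The inner ring anchors the central channel and holds the scaffold to the membrane. Of its 5 genes 1 fell and 0 rose, with a median of -0.12. NUP35, which touches the pore membrane, had 8.19, 8.27 and 8.24 in knockdown and 8.38, 8.43 and 8.43 in control cells, without overlap (-0.18 ± 0.040 SE, limma adjusted p = 0.0252). NUP205, a large scaffold protein with the highest signal of this ring, had 9.27, 9.24 and 9.26 in knockdown and 9.38, 9.37 and 9.37 in control cells. These groups did not overlap either, yet the change of -0.12 ± 0.034 missed the threshold (SE, limma adjusted p = 0.0688). NUP188, the paralog of NUP205, was the nearest to the threshold of the nucleoporin genes not called (-0.18, limma adjusted p = 0.0531). NUP93, the linker of the ring, and NUP155 were at -0.10 and -0.04, and NUP155 overlapped between groups.

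Central channel genes encode FG proteins that form the transport barrier, and NUP62, NUP58 and NUP54 assemble as a trimer. Of the 4 genes 2 fell and 0 rose, with a median of -0.15. NUP98 encodes a precursor that is cut into NUP98, an FG protein active in mRNA export, and NUP96, a Y complex subunit; it is known as a gene that interferon can induce. NUP98 had 7.45, 7.60 and 7.65 in knockdown and 7.90, 7.97 and 7.93 in control cells. Every knockdown value lay well below the controls, and knockdown replicate 1 was the lowest (-0.37 ± 0.057 SE, limma adjusted p = 0.00673). The 2 other NUP98 probe sets pointed the opposite way, as described with the probe sets. NUP58 had 7.29, 7.33 and 7.27 in knockdown and 7.46, 7.48 and 7.49 in control cells, again without overlap (-0.18 ± 0.037 SE, limma adjusted p = 0.0193). The other NUP58 probe sets were at -0.14, 0.03 and -0.007 and were not called. Averaged over its probe sets NUP58 was at -0.08 (limma adjusted p = 0.236). NUP62, with the highest signal of the class, had 9.41, 9.41 and 9.45 in knockdown and 9.58, 9.53 and 9.53 in control cells. Its groups were apart by less than in the called genes (-0.12 ± 0.037 SE, limma adjusted p = 0.0726). NUP54, the remaining member of the trimer, averaged 8.84 ± 0.017 in knockdown and 8.84 ± 0.036 in control cells (SD, n = 3 each).

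Membrane nucleoporins anchor the pore in the envelope. Of the 3 genes 1 fell and 0 rose. NDC1 had 7.88, 7.88 and 7.96 in knockdown and 8.15, 8.07 and 8.13 in control cells, without overlap (-0.21 ± 0.043 SE, limma adjusted p = 0.0191). NUP210 and POM121 overlapped between groups, at 0.02 ± 0.038 and -0.05 ± 0.045. POM121 has near-identical copies, and 5 further probe sets annotated to it together with POM121C or other copies, which were not counted as members, were at -0.14 to -0.06.

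The cytoplasmic face carries the filaments and the machinery that releases exported mRNA. Of its 7 genes 3 fell (42.9%) and 0 rose, with a median of -0.12. By count these were the most called genes of any class, but the central channel had the larger share (50%). NUP88, the partner of NUP214, had 8.38, 8.30 and 8.45 in knockdown and 8.66, 8.61 and 8.56 in control cells (-0.23 ± 0.051 SE, limma adjusted p = 0.0241). GLE1, which activates the helicase that strips export factors from mRNA, had 8.07, 8.07 and 8.14 in knockdown and 8.27, 8.33 and 8.28 in control cells (-0.20 ± 0.040 SE, limma adjusted p = 0.0183). RAE1, an mRNA export factor that binds NUP98, had 8.84, 8.84 and 8.86 in knockdown and 9.06, 9.02 and 9.0 in control cells (-0.18 ± 0.036 SE, limma adjusted p = 0.0190). None of these 3 genes overlapped between groups. AAAS, known as ALADIN, and RANBP2, the large filament protein that also joins SUMO to targets, were at -0.12 each, below control on all arrays. They did not pass the adjusted threshold (limma adjusted p = 0.136 and 0.162), though their unadjusted limma p was under 0.05. NUP214 and NUP42 were at -0.07 and -0.06 with overlapping groups.

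The nuclear basket reaches into the nucleoplasm. Of its 3 genes 1 fell and 0 rose. NUP50, which helps release import cargo, had 8.46, 8.38 and 8.44 in knockdown and 8.61, 8.61 and 8.66 in control cells, without overlap (-0.20 ± 0.040 SE, limma adjusted p = 0.0179). TPR, the coiled-coil protein of the basket, with the highest signal of the class, had 8.65, 8.60 and 8.53 in knockdown and 8.62, 8.66 and 8.69 in control cells, and the groups overlapped (-0.06 ± 0.045 SE, limma adjusted p = 0.428). NUP153 was at -0.05 ± 0.045.

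NUP210L, NUP210P1 and NUP62CL also match the rule by symbol, as relatives of NUP210 and NUP62. NUP210L and NUP210P1, a pseudogene, lay among the Tag probe sets, with 5 and 6 of the 17 above their control means, and were at -0.06 and -0.11, not passing the test. NUP62CL had 7.54, 7.54 and 7.60 in knockdown and 7.63, 7.52 and 7.54 in control cells, which overlap (-0.003 ± 0.044 SE).

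**Figure D2:**
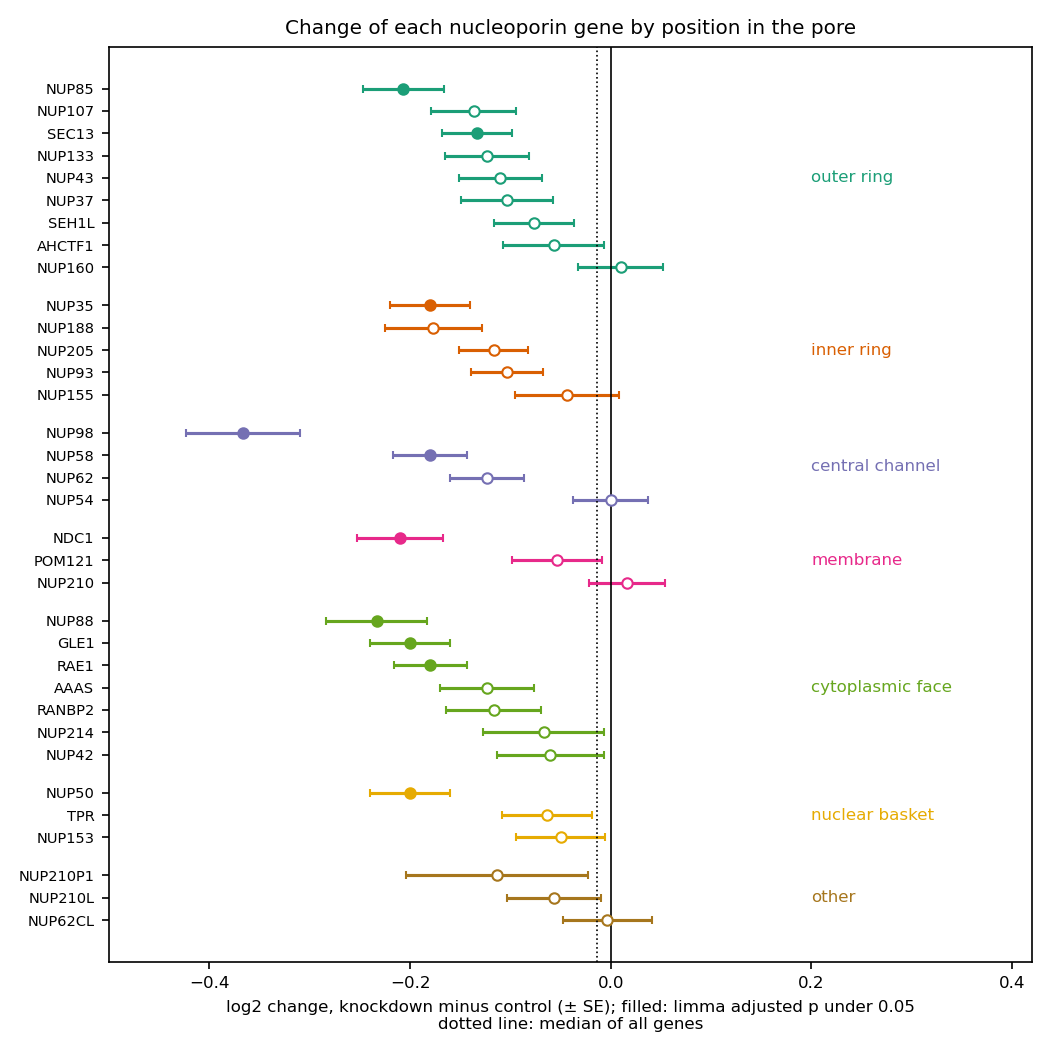
Log2 change (horizontal axis, knockdown minus control, ± SE of the limma fit) of each of the 34 nucleoporin genes, grouped by position in the pore; filled points passed an adjusted p under 0.05, and the dotted line is the median of all genes (-0.01). Called genes occur in all 6 structural classes, and the points run from -0.37 for NUP98 to 0.02 for NUP210.

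The 98 probe sets of the 34 genes gave a broader view, since 24 genes had more than 1. Of the 98, 88 had a negative change, 9 a positive one and 1 a change of 0. In a fit over all 44994 probe sets with 1 symbol, 22 of the 98 (22.4%) were called lower, against 5.33% of all probe sets, and 0 were called higher, against 4.76%. At an unadjusted limma p under 0.05, 3 of the 98 were higher (both further NUP98 probe sets and 1 of NUP153) and 48 lower (49.0%), against 10.4% of all probe sets higher and 14.6% lower. Probe sets of a gene share transcripts and are not independent. For 15 of the 24 genes every probe set was negative, and for 8 (AHCTF1, NUP153, NUP160, NUP210, NUP42, NUP58, NUP98 and TPR) the signs were mixed. How many of all probe sets, or of all genes at every probe set, were negative was not counted here.

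NUP98 showed the widest disagreement. Its other probe sets had means of 7.34 and 6.97 in knockdown and 7.17 and 6.77 in control cells. One read 7.28, 7.40 and 7.34 in knockdown against 7.20, 7.11 and 7.21 in control cells, and the other 6.87, 7.0 and 7.03 against 6.68, 6.82 and 6.82. Both were thus higher on all knockdown arrays than on all control arrays, by 0.17 ± 0.051 and 0.19 ± 0.061 (SE), without passing the test (limma adjusted p = 0.0790 and 0.0888 in the probe-set fit). Averaged over its 3 probe sets NUP98 was at -0.002 (limma adjusted p = 0.984), so the fall was measured at 1 of its probe sets. Which part of the transcript each probe set reads was not analysed here.

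All 4 probe sets of NUP35 were called lower, at -0.18, -0.27, -0.28 and -0.35 (limma adjusted p = 0.0372, 0.00677, 0.0126 and 0.0163 in the probe-set fit). The probe set with the largest change read 6.53, 6.34 and 6.32 in knockdown and 6.68, 6.82 and 6.74 in control cells. The probe set used for the gene, chosen for its signal, therefore showed the smallest of the 4 changes. NUP85 had 2 of 3 and NUP50 3 of 7 probe sets called lower, and all of their probe sets were negative.

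NUP160, NUP205, NUP214, NUP43, NUP62 and TPR, 6 genes not called by the probe set used, had another one that was called lower. For NUP214, a filament protein at the cytoplasmic face, 1 probe set read 6.03, 5.92 and 6.05 in knockdown and 6.47, 6.50 and 6.42 in control cells, the largest change of all 98 (-0.46 ± 0.050 SE, limma adjusted p = 0.00141 in the probe-set fit). The groups stood far apart there, and yet its 3 other probe sets were at -0.07 to -0.08. Another TPR probe set read 7.48, 7.34 and 7.36 in knockdown and 7.61, 7.65 and 7.82 in control cells (-0.30 ± 0.067 SE, limma adjusted p = 0.0285 in the probe-set fit). With all probe sets of a gene averaged, 12 nucleoporin genes were lower (35.3%, against 7.86% of all genes). They were 7 of the 10 above, without NUP98, NUP58 and SEC13, and in addition NUP188, NUP205, NUP62, SEH1L and NUP214. Among the probe sets used for the 10 called genes, 2 carry the suffix _s_at and 3 the suffix _x_at, which mark probes that can bind related transcripts.

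**Figure D3:**
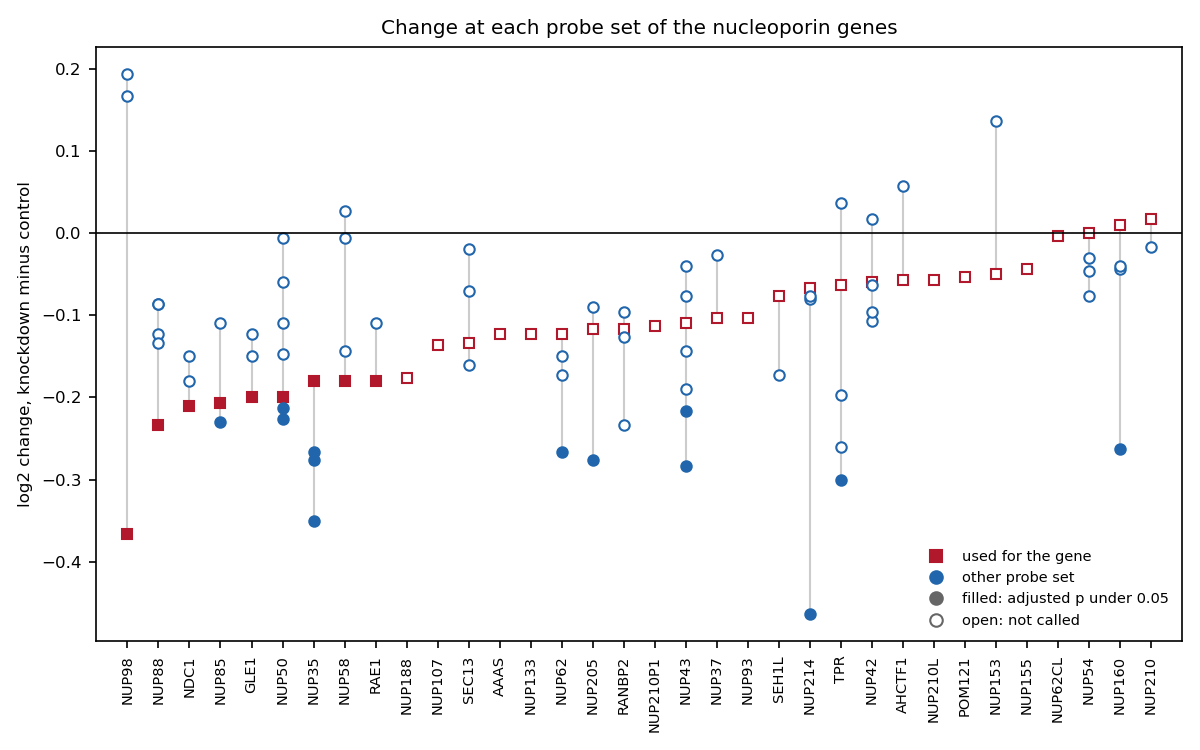
Log2 change (vertical axis, knockdown minus control) at each of the 98 probe sets of the nucleoporin genes, which run along the horizontal axis in the order of the change at the probe set used; red squares are the probe sets used for the gene, blue circles the others, and filled symbols passed an adjusted p under 0.05 over all probe sets. Most symbols lie below 0, NUP98 spans -0.37 to 0.19, and the lowest point is the NUP214 probe set at -0.46.

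Genes of proteins that work with the pore were read in the same fit. Over 3 lists of such partners 9 of 62 genes fell (14.5%), against 6.83% of all genes and 13.7% of the 5600 genes in the signal range given above. The share was near the last of these, whose range was set by the nucleoporin genes and not by the partners. KPNB1, RANBP1, THOC3 and POM121C, among the 9, had mean signals outside it (10.9, 10.6, 3.93 and 4.80). Genes matched to the partners in signal were not compared. Of 29 measured genes of transport receptors and the Ran cycle, 3 fell (10.3%), 0 rose and 26 did not pass, with a median of -0.06. They were RANBP1, a Ran cofactor, XPO1, the main protein export receptor, and KPNB1, importin beta. XPO1 had 9.41, 9.48 and 9.47 in knockdown and 9.63, 9.65 and 9.67 in control cells, without overlap (-0.20 ± 0.038 SE, limma adjusted p = 0.0166). RANBP1 changed by -0.19 ± 0.037 and KPNB1 by -0.15 ± 0.039, the last at the threshold (limma adjusted p = 0.0166 and 0.0499). At an unadjusted limma p under 0.05, TNPO1, an import receptor, was the 1 gene of this list that was higher (0.11), and 10 were lower (34.5%). Of all genes, 11.1% were higher and 15.5% lower at that threshold. RAN itself was at -0.08 ± 0.034 and did not pass (limma adjusted p = 0.168).

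Of 19 measured mRNA export genes 4 fell (21.1%) and 0 rose, with a median of -0.07. ALYREF, the adaptor that loads the export receptor, had 9.89, 9.89 and 9.98 in knockdown and 10.19, 10.18 and 10.14 in control cells, without overlap (-0.25 ± 0.042 SE, limma adjusted p = 0.00902). The helicase DDX39A was at -0.24 ± 0.059 and the THO subunit THOC1 at -0.17 ± 0.037. THOC3, at -0.30 ± 0.063, had a mean signal of 3.93, under the highest Tag probe set (4.65). Of 14 measured genes of pore assembly and SUMO partners 2 fell (14.3%) and 0 rose: MAD2L1, a spindle checkpoint protein whose partner MAD1L1 docks at the basket, by 0.31 ± 0.059 (SE, limma adjusted p = 0.0165), and POM121C, by 0.25 ± 0.064, on a probe set with the suffix _x_at. At an unadjusted limma p under 0.05, 0 genes of these last 2 lists were higher, against 11.1% of all genes. Lower at that threshold were 6 of mRNA export (31.6%) and 5 of pore assembly (35.7%), against 15.5% of all genes. The unadjusted shares were not counted for genes of like signal. The 9 calls over the 3 lists became 5, 3 and 7 without knockdown replicate 1, 2 or 3, when 4.09%, 3.04% and 4.37% of all genes were called lower. They became 4, 1 and 2 without control replicate 1, 2 or 3, when 3.60%, 2.60% and 3.08% of all genes were. KPNA2, NXF1, SEM1, ZC3H11A and SENP2 also belong to these lists and were not analysed here.

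Scaling sets the level of all these changes. Bacterial hybridization controls were at 9.50 ± 0.045 on knockdown and 9.22 ± 0.11 on control arrays (SD, n = 3 each). With arrays scaled to them, 34 of the 34 nucleoporin genes were called lower, with a median of -0.40, and so were 83.2% of all genes, whose median moved to -0.29. Poly-A controls were at 5.87 ± 0.0092 on knockdown and 5.73 ± 0.052 on control arrays, and scaled to them 31 of the 34 were called lower, against 46.3% of all genes. Whether the controls or the typical gene are the better reference was not tested. Such scaling adds the same amount to every gene of an array, so it leaves the gap of 0.10 between the median of the nucleoporin genes and that of all genes as it was by construction.

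**Figure D4:**
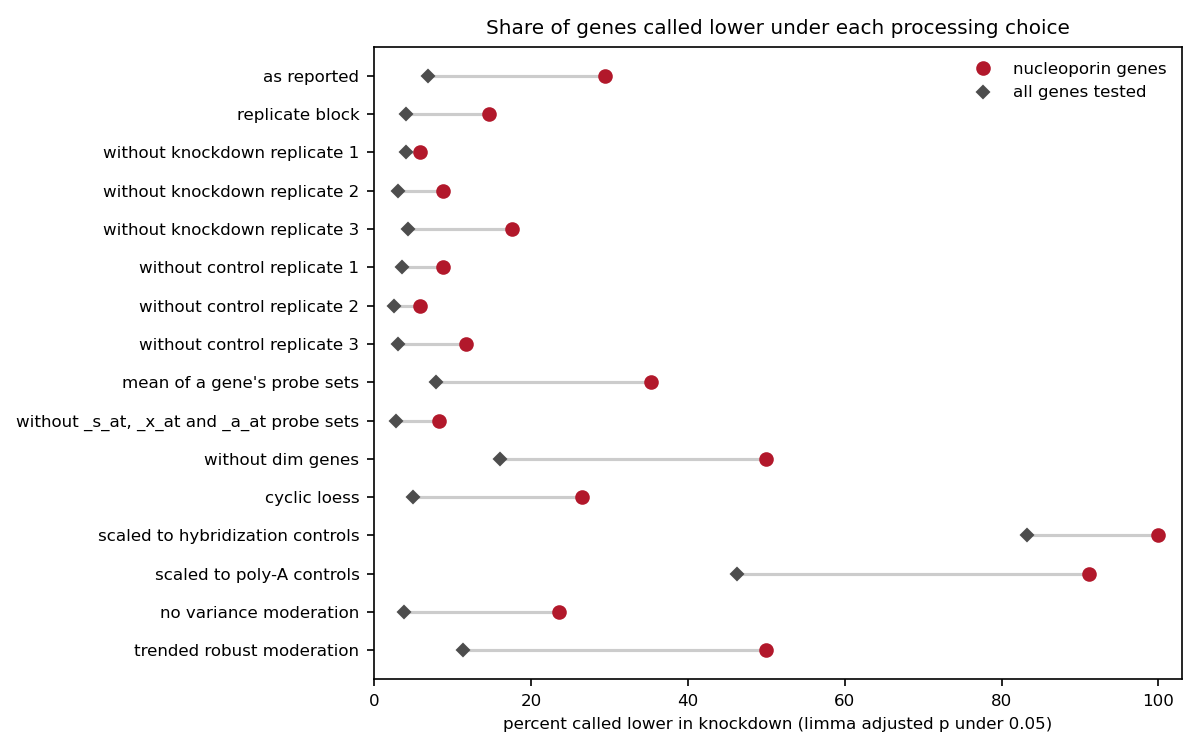
Percent of genes called lower in knockdown cells (horizontal axis, limma adjusted p under 0.05) among the nucleoporin genes (red circles) and among all genes tested (grey diamonds), for the fit as reported and 15 alternatives. The nucleoporin share lies above the share of all genes in all 16 fits, by the least without knockdown replicate 1 (5.88% against 4.09%).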

How the data were processed

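Signals were measured on 6 one-colour arrays with biotin-labelled cRNA. The deposited table holds log2 values of 49372 probe sets, which the authors made with RMA per the submitters' processing notes, with its software not named. The table has 2 decimals and array medians between 5.10 and 5.11, so it was not normalized again.

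GEO's platform annotation gave the symbols: 44994 had 1 symbol, 1832 several and 2546 none. Symbols were updated by gene identifier (GRCh38.p14). Per gene the probe set with the highest mean was kept, giving 18132 genes, fitted with limma 3.58.1 in R 4.3.3 (lmFit, eBayes, 2-sided, no covariate, Benjamini-Hochberg over all genes, threshold 0.05). A second fit used all 44994 probe sets. Errors are standard errors of the fit or standard deviations over 3 arrays. The pipeline was tested on simulated data. The number of arrays limits the precision.

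Arrays correlated at 0.9983 to 0.9988 within groups and 0.9960 to 0.9963 between them, and no pair was identical at more than 4.81% of probe sets. Same-numbered arrays did not deviate together (correlations 0.092, 0.058 and -0.0095), and replicate numbers were treated as names.

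The members, classes, partner lists and motifs were chosen with earlier results of these data known. All members are named; array values are given for called members and the brightest of each class, and for partner lists at most 4 called genes each. The probe sets of NUP98, NUP35, NUP214 and TPR given by array, and the sequences printed, were picked after their values were seen. Figures were drawn with matplotlib 3.10.9.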

Additional observations from a re-analysis of the deposited data

How the results depend on the processing

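In 15 alternatives to the 10 lower and 0 higher nucleoporin genes, the count of higher genes was 0 throughout. The median log2 change was negative throughout, between 0.077 and 0.11 below that of all genes. Scaling to controls, the replicate block, no moderation and trended robust moderation cannot alter this gap by construction, so they do not test it. The count of lower genes was 5 with the replicate block (4.12% of all genes), which called 5 of the partner genes. It was 2 to 6 when 1 array was left out. Without dim genes it was 16 of 32 (16.0% of all genes), and 17 with trended robust moderation (11.3%). Without _s_at, _x_at and _a_at probe sets it was 1 of 12 measured, NUP214 (2.81% of all genes). Of the 10 called genes only GLE1, NUP88 and SEC13 were measured in that fit, and 0 kept the call. The other called genes had no such probe set and were not retested. Scaled to the hybridization and poly-A controls the count of lower genes was 34 and 31 (83.2% and 46.3% of all genes). The median was -0.097 to -0.125 when 1 array was left out, -0.086 after cyclic loess, and -0.397 and -0.256 scaled to the hybridization and poly-A controls. NUP210 and NUP160 turned from slightly positive to -0.26 and -0.27 (called) when scaled to the hybridization controls, a shift applied to all genes alike that shows nothing about these 2. Without moderation NUP98 was not called (adjusted p = 0.0543). Partner genes called lower were 9, and 1 to 7 with 1 array left out, 2 without the suffixed probe sets, 14 without dim genes, 61 and 49 under the hybridization and poly-A scaling, and 19 with trended robust moderation, which also called 1 higher. Of all genes 2285 were called, against 1104 to 1575 with 1 array left out, 493 without the suffixed probe sets, 15317 and 8894 under the scalings, 1314 without moderation and 3502 with trended robust moderation. Fewer arrays and fewer genes tested change these counts by construction; other causes were not tested.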
